A study of Mus musculus with 6 samples.

Results

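Ependymal cells line the ventricles of the brain, and the spots that hold them were described here in 6 Visium sections of mouse brain. A spot is a small round capture area on the slide that takes up RNA from the tissue above it, so it can hold several cells of different types. Each spot received a score, the sum over Ccdc153, Tmem212, Dynlrb2 and Rarres2 of the natural log of 1 plus the UMIs per 10000 (a UMI is a tag that marks 1 captured RNA molecule). Spots under the deposited tissue mask with at least 1000 UMIs entered, which left 13334 spots, and those at or above the pooled 99th percentile of the score, 2.55, were taken as ependymal, so the members were chosen by the measured UMIs of these 4 genes. This gave 134 ependymal spots and 13200 other spots.

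All 6 mice were female and homozygous for a human APOE allele (E4 or E3) that replaces the mouse gene under the mouse Apoe promoter, so the E3 sections are themselves humanised. There was 1 hemibrain section from each of 6 groups: E4 5xFAD, E3 5xFAD, E4 aged, E3 aged, E4 young and E3 young. The 5xFAD mice were 12 months old and carried the 5xFAD transgenes, mutant human APP among them, under Thy1 regulatory sequence, which is active in neurons. The aged mice were 24 and the young mice 3 months old, both without these transgenes, so age and transgenes cannot be told apart between 5xFAD and young. A section is the replicate below, spots of 1 section are not, and a p-value measures no spread beyond these 6 sections. The fits also pool the spread over all genes. Their p-values therefore do not rest on the section values of 1 gene alone and can be very small.

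Ependymal cells are multiciliated: each carries a tuft of motile cilia whose beat moves cerebrospinal fluid. The shaft of a motile cilium, the axoneme, is built from microtubule doublets with dynein arms as motors, radial spokes and nexin-dynein complexes as regulators and a central apparatus. The transcription factor Foxj1 switches this programme on together with factors of the RFX family, which bind a DNA element called the X-box. The choroid plexus, an epithelial tissue that secretes cerebrospinal fluid, hangs into the same ventricles and touches the ependyma.

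The ependymal spots came to 17 of 2322 spots in E4 5xFAD, 12 of 2540 in E3 5xFAD, 12 of 1445 in E4 aged, 15 of 2140 in E3 aged, 47 of 2243 in E4 young and 31 of 2644 in E3 young. Of the 134, 116 touched another ependymal spot on the array. Their UMI sums were 230886 and 58932 in the E4 and E3 5xFAD sections, 119652 and 163623 in E4 and E3 aged, and 494119 and 632049 in E4 and E3 young. Median UMIs per ependymal spot lay between 3768, in E3 5xFAD, and 18830, in E3 young, and those of other spots between 11249 and 15935. The array reuses its spot barcodes on every slide: 2709 of 3372 barcodes served in more than 1 section, and 12 barcodes were ependymal in more than 1.

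Some libraries stand apart. Human APP was at 91.9 and 63.1 CPM (UMIs per 1000000 UMIs of the summed spots) in other spots of E4 and E3 5xFAD and at most 0.323 CPM in the other 4 sections, as labelled, and human APOE was present in all 6, which does not tell E4 from E3. The deposited masks held 75.9 to 86.0% of their spots in the matrix in 5 sections and 99.9% in E3 5xFAD. The matrix headers also set E3 5xFAD apart, with spaceranger 2.0.0, against 1.2.2 in the other 5 sections. In E4 young, Ttr, the thyroid hormone carrier of the choroid plexus, was at 745 CPM in ependymal spots, against 53388 to 166667 CPM in the other 5 sections. E4 young ependymal spots also held 2315 CPM of the 4 rule genes and 6626 CPM of axoneme genes, against 831 to 978 and 2613 to 3076 CPM elsewhere, so results are given without this section where it changes them.

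**Figure D1:**
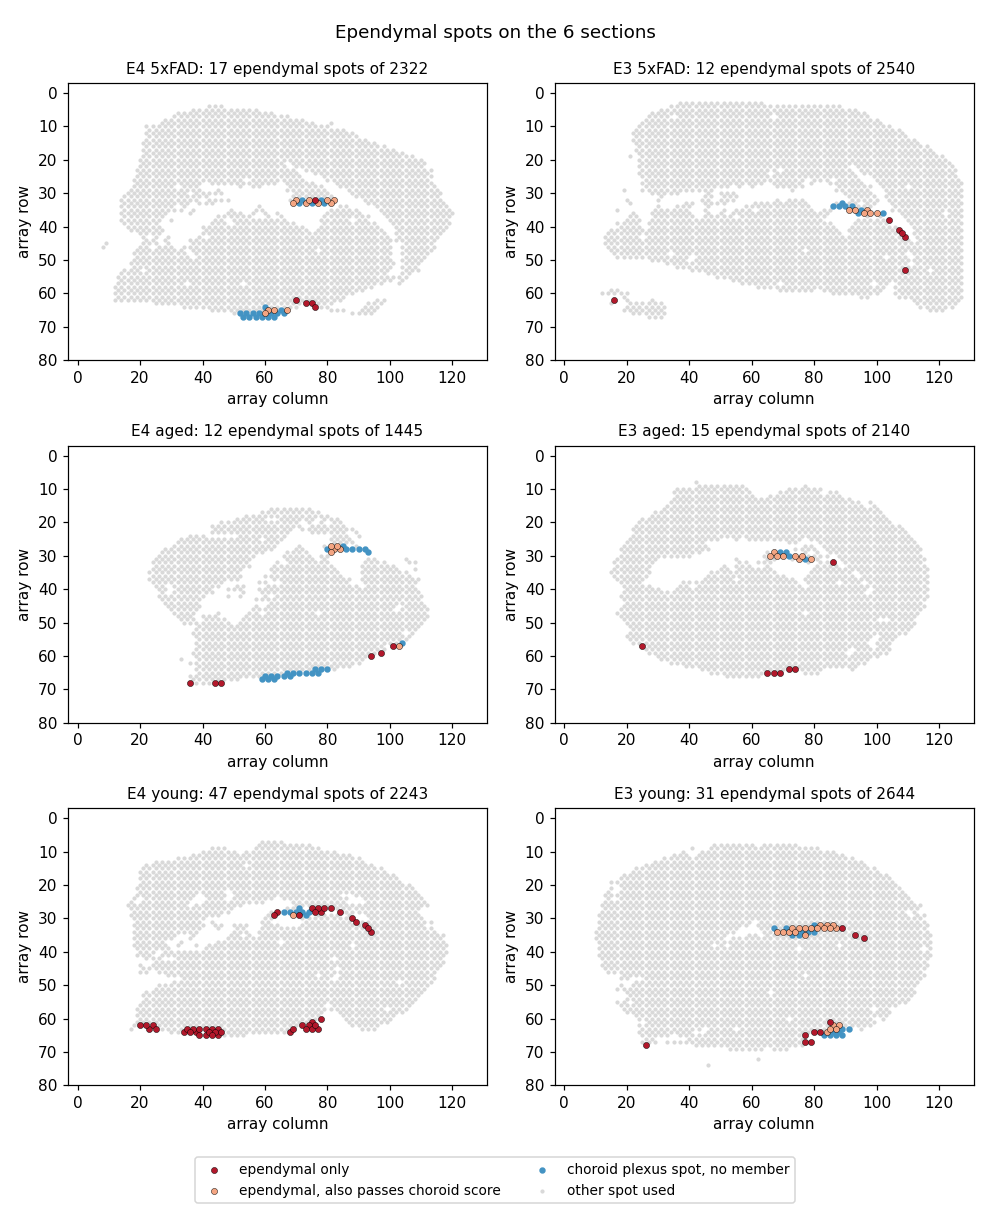
Array row against array column of every spot used (grey) in each of the 6 sections, with ependymal spots coloured by whether they also passed a choroid plexus score. Ependymal spots form short runs at a few places per section, and 46 of the 47 in E4 young did not pass the choroid plexus score.

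The X-box frames the finding that follows, so the promoters of 4 motile cilium genes that were higher in ependymal spots, and of the rule gene Dynlrb2, a dynein light chain, are shown around it. The sequences are from RefSeq on GRCm38.p6, read on the strand of the gene, with the X-box in capitals.
Iqca: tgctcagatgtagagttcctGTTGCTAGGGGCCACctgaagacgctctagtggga
Spag16: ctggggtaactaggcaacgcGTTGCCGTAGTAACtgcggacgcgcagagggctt
Lrrc23: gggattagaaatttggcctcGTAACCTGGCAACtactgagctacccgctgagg
Dnaic2: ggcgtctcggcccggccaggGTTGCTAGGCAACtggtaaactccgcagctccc
Dynlrb2: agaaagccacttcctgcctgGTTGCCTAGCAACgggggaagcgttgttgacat
They lie at chr1:90153450-90153504 (minus strand), chr1:69826847-69826900 (plus), chr6:124779859-124779911 (minus), chr11:114727366-114727418 (plus) and chr8:116504944-116504996 (plus). Counted from the annotated start of transcription, the capitals run from -48 to -34 in Iqca, from -103 to -90 in Spag16, from -164 to -152 in Lrrc23, from -33 to -21 in Dnaic2 and from -51 to -39 in Dynlrb2. Iqca and Lrrc23 encode parts of the nexin-dynein complex or radial spokes, Spag16 a central apparatus protein and Dnaic2 an intermediate chain of the outer dynein arm.

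Windows of 300 bases, 250 before to 50 after the start, were searched on both strands for the X-box with a spacer of up to 3 bases, for its half-site GTTGCC and for the forkhead motif TGTTTAC that Foxj1-type factors bind. Of 89 axoneme genes higher in ependymal spots, 69 had a window, and 13 of these (18.8%) held an X-box, against 1.75% of all 27025 genes with a window and 2.02% of the genes tested. The half-site, which can lie inside an X-box, was in 31 (44.9%) of the axoneme windows, against 14.1% of all. The forkhead motif was in 4 (5.80%), against 4.05% of all. These are matches of letters, with median GC of 54.7% in the axoneme windows and 52.7% in all, and no binding was measured. With axoneme genes taken whether higher or not, 14 of 76 with a window (18.4%) held an X-box. Among all genes higher in ependymal spots 67 of 1913 with a window held one, and among all lower genes 42 of 1999. The X-box share thus describes the axoneme list, and a link to the rise in ependymal spots was not tested. Of the 25 genes with the largest rises described below, 2 of 21 with a window (9.52%) held an X-box. Among the rule genes, 3 had a window: Dynlrb2 held the X-box above, Ccdc153 a half-site and Tmem212 neither.

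The rule genes come first as a description, since they chose the spots. Of the 134 ependymal spots, 84 had UMIs of all 4 genes, 37 of 3, 9 of 2 and 4 of 1 gene, with a median of 11 rule UMIs (2 to 127) per spot. The score was 0 in 79.8% of all spots used, and the median of ependymal spots was 4.21. Ccdc153, a coiled-coil protein of motile cilia, had a UMI in 87.3% of ependymal and 2.66% of other spots. Tmem212, a membrane protein, had one in 84.3% and 2.20%, Dynlrb2 in 84.3% and 2.82%, and Rarres2, which encodes the secreted chemerin, in 94.0% and 14.3%. Just inside the threshold the scores were 2.61, 2.60, 2.59, 2.56 and 2.55, and just outside 2.53, 2.51, 2.45, 2.45 and 2.42. The lowest of those inside rested on 2 UMIs, of Rarres2 alone, and 5 ependymal spots had no more than 2 rule UMIs.

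The label held against markers that the rule did not use. Foxj1 was at 195 and 271 CPM in ependymal spots of E4 and E3 5xFAD, 109 and 134 CPM in E4 and E3 aged, and 285 and 122 CPM in E4 and E3 young, against 3.56 to 6.45 CPM in other spots of the 6 sections. The 2 ranges lie far apart, and Foxj1 was higher by 4.99 ± 0.20 on the log2 scale (SE, 6 sections, edgeR quasi-likelihood with section as a block, adjusted p = 1.94e-59). Fam183b, a cilium-associated gene, was at 147 and 102 CPM in E4 and E3 5xFAD, 150.4 and 104 CPM in E4 and E3 aged, and 378 and 103 CPM in E4 and E3 young, against 8.13 to 11.7 CPM in other spots. Hdc, the histamine-forming enzyme, was at 56.3 and 33.9 CPM in E4 and E3 5xFAD, 33.4 and 36.7 CPM in E4 and E3 aged, and 149.8 and 64.9 CPM in E4 and E3 young. In each of these genes the ependymal spots of every section stood above the other spots of every section.

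The other 7 markers set aside for this check also rose, each with an adjusted p of 1.98e-17 or less. The log2 differences were 3.92 ± 0.20 for Fam183b, 4.94 ± 0.34 for Hdc, 5.37 ± 0.21 for Mia, a secreted protein, and 5.34 ± 0.35 for Pifo, which acts at the base of cilia. Sntn, a protein of the cilium tip, rose by 6.80 ± 0.46, Tmem107, a transition zone protein, by 3.00 ± 0.20, and Tppp3, a tubulin-binding protein, by 1.497 ± 0.152. Tppp3 rose least and was also at 52.9 to 82.1 CPM in other spots.

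**Figure D2:**
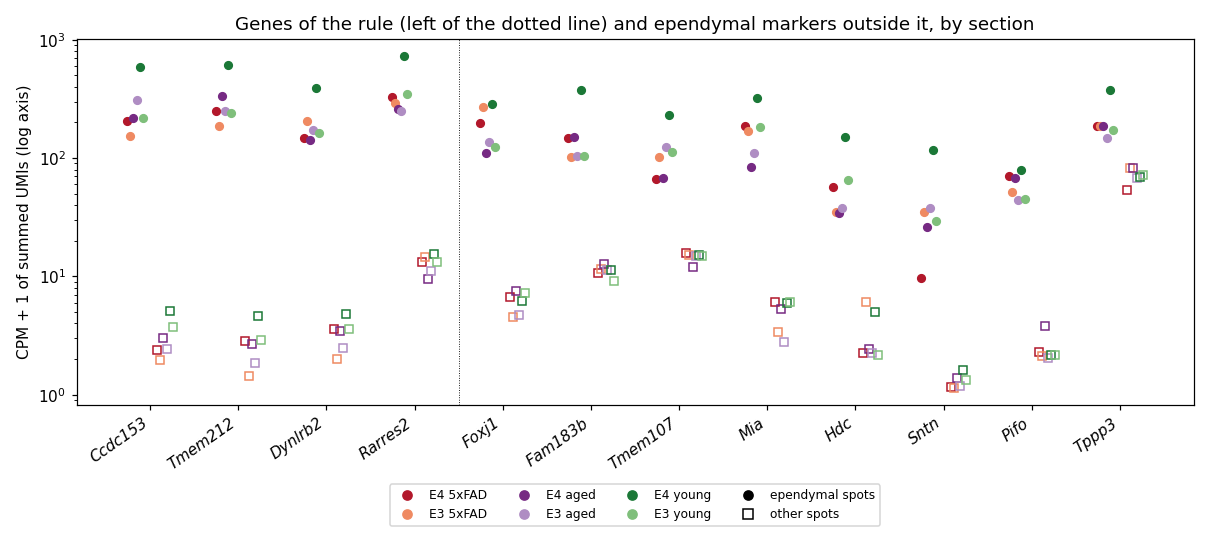
CPM (log axis) of the 4 rule genes and of 8 ependymal markers outside the rule, 1 point per section, in ependymal spots and in other spots. For Foxj1 the ependymal spots sit between 109 and 285 CPM and the other spots between 3.56 and 6.45 CPM, with E4 young highest among the ependymal points of most genes.

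Set against all other spots, 5122 of 15601 genes differed, 2488 higher (15.9% of those tested) and 2634 lower (16.9%), with a median over all genes of -0.08 on the log2 scale. Another scaling moves this split: with RLE size factors 2862 were higher and 2023 lower, and with DESeq2 2495 and 1528, with medians of 0.04 and 0.06. Without the 54 ependymal spots that also passed a choroid plexus score (built the same way from Ttr, Folr1, Kl, Clic6 and Kcnj13, threshold 8.70), 1342 were higher and 1376 lower, of which 2566 were among the 5122. In bulk sums of spots, a difference in the number of cells of a type and in RNA per cell cannot be told apart.

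Motile cilium genes led the higher side. Of 100 axoneme genes on 5 lists, 97 were tested, 89 rose and 1 fell, with a median log2 difference of 3.97, against -0.08 over all genes. Ak7, an adenylate kinase of the central apparatus, was at 73.6 and 33.9 CPM in E4 and E3 5xFAD, 117 and 61.1 CPM in E4 and E3 aged, and 225 and 74.4 CPM in E4 and E3 young. Other spots held 0.323 to 1.44 CPM of Ak7, and it rose by 6.77 ± 0.33, the largest difference among genes with at least 100 UMIs in ependymal spots that were higher there in all 6 sections. Rsph1, a radial spoke head protein, was at 134 and 187 CPM in E4 and E3 5xFAD, 184 and 153 CPM in E4 and E3 aged, and 383 and 146 CPM in E4 and E3 young, against 4.32 to 6.65 CPM in other spots. For both genes the lowest ependymal section lay well above the highest of the other spots.

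All 5 parts of the axoneme took part. Of dynein arm genes, 20 of 23 tested rose (median 3.97), among them the heavy chain Dnah6 (5.40 ± 0.38) and the light intermediate chain Dnali1 (5.98 ± 0.39). Of dynein arm assembly genes, which fold and load the motors in the cytoplasm, 10 of 11 rose (median 2.82), with Zmynd10 at 4.11 ± 0.34. Of radial spoke and nexin-dynein genes, 18 of 19 rose (median 3.53), with Drc7 at 5.60 ± 0.35. All but 1 of 14 central apparatus genes rose (median 4.35), with Hydin at 5.89 ± 0.42 and Cfap65 at 4.40 ± 0.33, and 28 of 30 axonemal microtubule genes (median 4.36), with Cfap126 at 5.54 ± 0.27.

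The exceptions were few. Nme7, which is also a part of the microtubule-nucleating complex at centrosomes, fell by 0.72 on the log2 scale (SE 0.19). Dnah8, Lrrc6, Efhc2, Cfap221, Gas8, Dnal4 and Dnal1 did not pass the test, with differences between -0.04 (Dnal1) and 1.93 (Dnah8). The list medians changed little without E4 young, with 3.73 for dynein arms and 3.95 for the central apparatus, and 25 of 29 microtubule genes still rose.

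Genes that non-motile cilia share were less uniform. Of 28 genes of intraflagellar transport and the BBSome, which carry cargo along any cilium, 13 rose and 2 fell (median 0.56). Ift80 rose by 1.60 ± 0.25 and Ttc30b by 1.95 ± 0.25, while Kifap3, a subunit of a kinesin that also works in axons, fell by 0.94 on the log2 scale (SE 0.14). Of 13 basal body and centriole genes 7 rose and 1 fell (median 1.27), with Ccdc78 of the deuterosome at 6.30 ± 0.44. Of 11 cilium transcription factors 7 rose (median 1.13), with Myb at 5.95 ± 0.49 beside Foxj1, and Rfx3 stood at 0.35 ± 0.24 (adjusted p = 0.267).

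The 25 leading genes held cilium genes and genes of secretory epithelium. Beside Ak7, Drc7, Cfap126, Dnah6, Cfap52, Lrrc23, Rsph1, Odf3b and Pifo, they included 1700001C02Rik (6.66 ± 0.38) and the cadherin-like Cdhr4 (6.46 ± 0.33). Calml4, a calmodulin-like protein, was at 251 and 458 CPM in E4 and E3 5xFAD, 192 and 238 CPM in E4 and E3 aged, and 267 and 274 CPM in E4 and E3 young, against 1.26 to 7.70 CPM in other spots. Lbp, a binding protein for bacterial lipopolysaccharide, rose by 5.67 ± 0.21 and Wfdc2, a secreted protein, by 5.66 ± 0.30. In E4 young Calml4 and Lbp lay within the range of the other sections, at 267 and 156 CPM, while Kcnj13, Folr1, 2900040C04Rik and F5 of the choroid plexus list, also among the 25, were low there: Kcnj13 was at 2.02 CPM in E4 young and at 58.5 to 390.3 CPM in the other 5 sections.

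**Figure D3:**
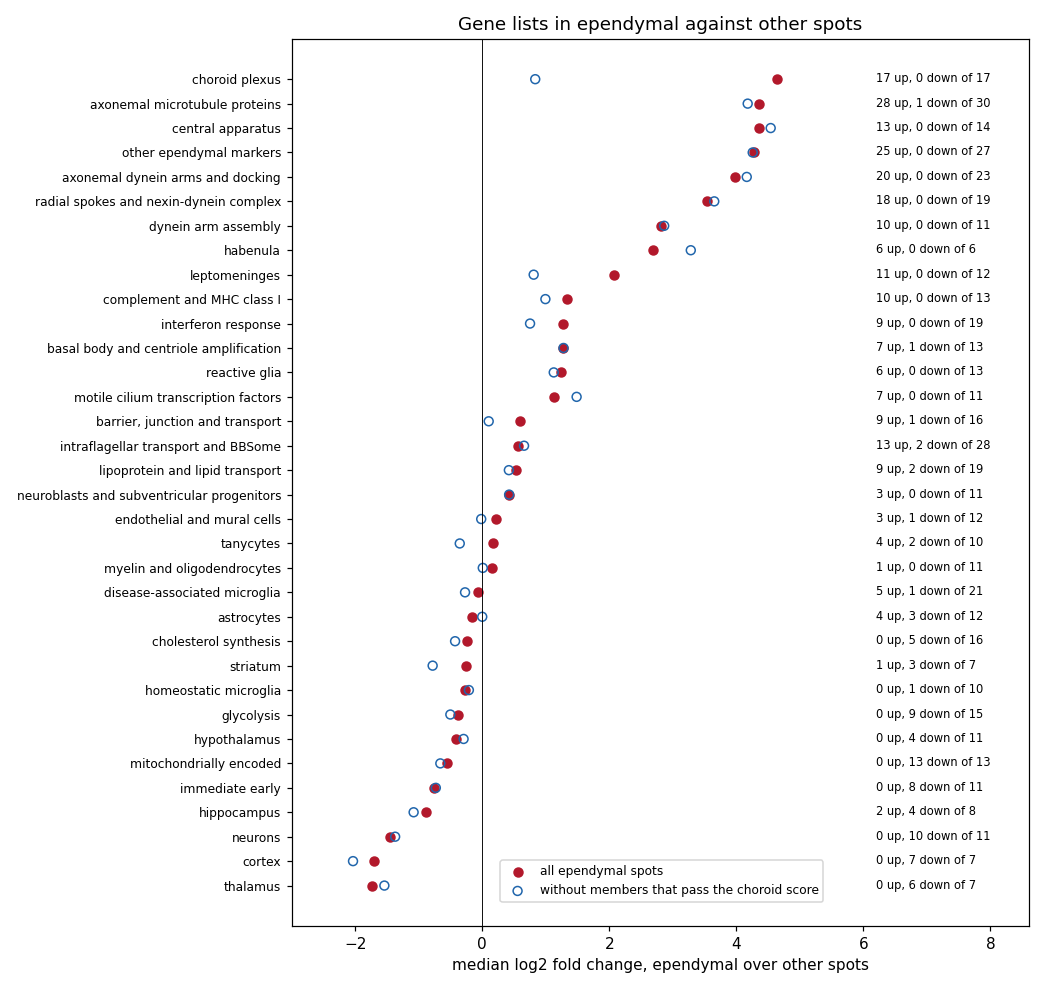
Median log2 difference of ependymal against other spots for each gene list, with the number of genes higher and lower of those tested. Axoneme, ependymal and choroid plexus lists lie above 2 and neuronal, thalamic and cortical lists below -1, around an all-gene median of -0.08.

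Choroid plexus RNA was part of these spots. All 17 choroid plexus genes rose (median 4.64), and 9 of 17 without the 54 spots that passed the choroid score (median 0.83). Ttr was at 129311 and 166667 CPM in ependymal spots of E4 and E3 5xFAD, 53388 and 58745 CPM in E4 and E3 aged, and 745 and 97040 CPM in E4 and E3 young, and its log2 difference of 4.83 ± 0.26 became -0.10 without those 54 spots. In leptomeninges, the outer brain covering, 11 of 12 list genes rose (median 2.07), and without those spots 4 of 11 did (median 0.81). With the choroid-bearing spots left out the axoneme lists had medians of 4.16 for dynein arms, 4.54 for the central apparatus and 4.18 for microtubule proteins.

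Immune and glial genes rose in part. Of 13 complement and MHC class I genes 10 rose (median 1.33), and 4 did without the 54 choroid-bearing spots. H2-K1, an antigen-presenting molecule, was at 160.3 and 356 CPM in E4 and E3 5xFAD, 209 and 42.8 CPM in E4 and E3 aged, and 95.1 and 94.9 CPM in E4 and E3 young, against 27.4 to 61.8 CPM in other spots. These ranges overlap through E3 aged, and the difference was 1.64 ± 0.17. C3, the central complement protein, rose by 3.96 ± 0.45 on 28 UMIs.

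Of 19 interferon response genes 9 rose (median 1.27), among them Ifitm3 (2.47 ± 0.18) and Ifi27 (2.16 ± 0.15), and 6 did without the choroid-bearing spots. Of 13 reactive glia genes 6 rose, with the intermediate filament genes Vim at 3.33 ± 0.15 and Gfap at 1.24 ± 0.15. Of 12 astrocyte genes 4 rose and 3 fell: the water channel Aqp4 rose by 1.17 ± 0.17, while the glutamate transporter Slc1a2 fell by 0.87 on the log2 scale (SE 0.11). Homeostatic microglia genes showed 0 of 10 higher and 1 lower, P2ry12, which fell by 0.74 on the log2 scale (SE 0.28) and did not pass with RLE size factors or DESeq2.

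Of 19 lipoprotein and lipid transport genes 9 rose and 2 fell (median 0.53), against 15.9% and 16.9% of all genes. Human APOE, the targeted gene, was at 1810.4 and 2766 CPM in ependymal spots of E4 and E3 5xFAD, 2064 and 1742 CPM in E4 and E3 aged, and 1281 and 1324 CPM in E4 and E3 young. Other spots held 1062 and 979 CPM in E4 and E3 5xFAD, 934 and 728 CPM in E4 and E3 aged, and 755 and 777 CPM in E4 and E3 young. APOE was higher in ependymal spots of each section, by 0.91 ± 0.11 (adjusted p = 8.53e-14). Clu, an apolipoprotein, rose by 1.298 ± 0.105 and Pltp, which transfers phospholipids, by 3.09 ± 0.13.

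Neuronal genes were lower. Of 11 neuronal genes 10 fell (median -1.45): Snap25, a synaptic vesicle fusion protein, was at 858 and 781 CPM in E4 and E3 5xFAD, 1237 and 1766 CPM in E4 and E3 aged, and 1170 and 1207 CPM in E4 and E3 young, against 2544 to 3387 CPM in other spots. The ependymal and other ranges of Snap25 did not overlap, and it fell by 1.48 on the log2 scale (SE 0.11). All 13 mitochondrially encoded genes (median -0.55), 8 of 11 immediate early genes (median -0.75) and 9 of 15 glycolysis genes (median -0.38) fell as well. With RLE size factors or DESeq2 12 or 10 mitochondrial, 8 or 6 immediate early and 6 or 6 glycolysis genes fell, each median staying below 0. Among genes with at least 100 UMIs that were higher in ependymal spots of no section, 3 fell most. These were the neuropeptide Pmch (-2.44 ± 0.15), the kinase Prkcd (-2.31 ± 0.16) and the neuropeptide Cck (-1.97 ± 0.12). Pmch in other spots ran from 0.536 to 1163.5 CPM over the sections.

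Some of these values differed by place. The map of spots, once seen, was split at array row 50 and column 50. At rows under 50 there were 9, 10, 5, 9, 16 and 19 ependymal spots in E4 5xFAD, E3 5xFAD, E4 aged, E3 aged, E4 young and E3 young, of which 8, 6, 5, 8, 1 and 16 passed the choroid score. At rows and columns of 50 or more there were 8, 1, 4, 5, 10 and 11 in the same sections. At rows of 50 or more and columns under 50, E4 young held 21 and the other sections 0 to 3.

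Habenula genes marked the place at rows and columns of 50 or more in E4 5xFAD, E4 aged, E3 aged and E3 young. They did not in E4 young or E3 5xFAD, where their sums near the spots at columns under 50 were higher, at 603 and 411 CPM. The habenula is a pair of nuclei beside the dorsal midline ventricle, and its 6 list genes summed to 1991, 3380, 2037, 516 and 2221 CPM in spots within 2 spots of these ependymal spots in E4 5xFAD, E4 aged, E3 aged, E4 young and E3 young, and to 29.7 CPM in E3 5xFAD. Over all ependymal spots 6 of 6 habenula genes rose (median 2.69), Tac2 by 2.69 ± 0.19. With only the ependymal spots at rows under 50 none rose and 3 of 6 fell (median -1.57), with Tac2 at -1.87. Hypothalamic genes summed to 1028 to 2729 CPM near the ependymal spots at columns under 50. In E3 5xFAD, E3 aged and E3 young this place held 1 ependymal spot each. The sums were 480 to 886 CPM near those at rows under 50. At rows and columns of 50 or more they were 1855 CPM in E3 5xFAD, near 1 ependymal spot, and 432 to 821 CPM in the other sections.

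Sspo, which encodes the SCO-spondin secreted at the roof of the midline ventricle, was at 826 CPM in ependymal spots of E4 young on 408 UMIs. Of these UMIs 405 came from the 10 spots at rows and columns of 50 or more, and the other 5 sections held 0 to 6.11 CPM. Tanycyte genes, of the cells that line the floor of the midline ventricle, showed 4 of 10 higher and 2 lower. Of these, Gpr50 was at 109 CPM in E4 aged, 2.02 CPM in E4 young and 0 in the other 4 sections, and Rax was at 25.1 CPM in E4 aged, 4.05 CPM in E4 young and 0 in the other 4. Both rest on few UMIs, 14 for Gpr50 and 5 for Rax.

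**Figure D4:**
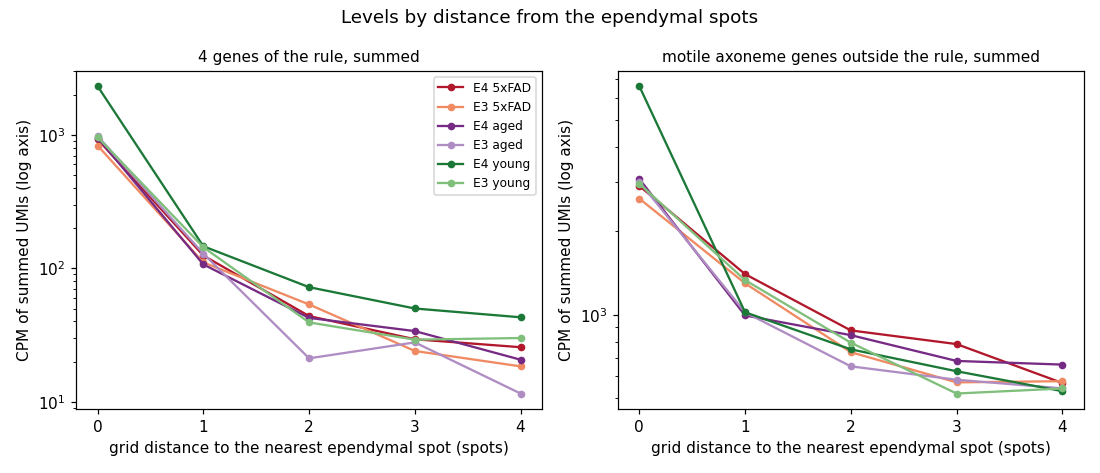
CPM (log axis) of the 4 rule genes (left) and of the axoneme genes outside the rule (right) in ependymal spots (distance 0) and in spots 1 to 4 steps away on the array grid, 1 line per section. Axoneme genes go from 2613 to 6626 CPM at distance 0 to 994 to 1399 CPM at distance 1 and 531 to 662 CPM at distance 4.

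The cilium signal was also summed by distance, as a description. The score chose the spots at distance 0, and all spots further away lay below its threshold. The step from distance 0 to 1 is therefore partly set by that choice, also for axoneme genes outside the rule. From 1 to 2 spots away the sums of these genes still fell. Axoneme genes outside the rule summed to 2613 to 6626 CPM in ependymal spots, 994 to 1399 CPM 1 spot away, 652 to 878 CPM 2 spots away, 521 to 784 CPM 3 spots away and 531 to 662 CPM 4 spots away. In every section the value at distance 0 was above all values at distance 1. The rule genes, given as description, summed to 831 to 2315, 107 to 146, 21.2 to 72.3, 24.1 to 50.03 and 11.5 to 42.99 CPM at the same distances.

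Choroid plexus spots are the nearest neighbours by place, and 80 of them were not ependymal: 20, 8, 25, 4, 7 and 16 in E4 5xFAD, E3 5xFAD, E4 aged, E3 aged, E4 young and E3 young. Of 5461 genes, 135 were higher (2.47%) and 138 lower (2.53%) in ependymal than in choroid plexus spots. Of 24 other ependymal markers 13 were higher and none lower (median 1.03), with Fam183b at 2.49 ± 0.40 (adjusted p = 0.00105) and the cadherin-related Cdhr3 at 3.10 ± 0.50. Foxj1 stood at 0.68 ± 0.22 and did not pass (adjusted p = 0.0705): the choroid plexus spots themselves held 78.3 to 117 CPM of Foxj1. Of the axoneme lists, 5 of 39 genes tested were higher and none lower. This comparison rests on few sections: without E3 young the 273 genes called became 44, and without E4 aged 62.

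Glial genes were among those that differed between these 2 groups of spots, each of which can hold several cell types. Of 12 astrocyte genes 6 were higher in ependymal spots and none lower (median 0.87), with Gfap at 1.73 ± 0.22 and Aqp4 at 1.47 ± 0.27. The metal-binding metallothioneins Mt1 (1.19 ± 0.13) and Mt2 (1.28 ± 0.16), the imprinted gene Nnat (1.66 ± 0.26) and 5 of 6 habenula genes were also higher, as were 3 of 3 blood genes tested, with the beta globin Hbb-bs at 3.17 ± 0.43. The transporter Slc4a5 (-1.74 ± 0.29), the serotonin receptor Htr2c (-1.35 ± 0.21) and the peptide precursor Ecrg4 (-1.32 ± 0.24) were lower in ependymal spots. So were 8 of 12 choroid plexus genes outside that score, and 3 of 6 interferon response genes.

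The first question between groups was whether the share of ependymal spots differed with APOE genotype. It was 0.732% (exact 95% interval 0.427 to 1.17) and 0.472% (0.244 to 0.824) in E4 and E3 5xFAD, 0.830% (0.430 to 1.45) and 0.701% (0.393 to 1.15) in E4 and E3 aged, and 2.10% (1.54 to 2.78) and 1.17% (0.798 to 1.66) in E4 and E3 young. Intervals here and below cover counting error only. The mean was 1.22 ± 0.760% in E4 and 0.782 ± 0.357% in E3 sections (SD, n = 3 each), a difference of 0.437 percentage points (two-sided exact permutation p = 0.5, where 3 against 3 allows no p under 0.1). Without E4 young the difference was -0.0007 points. The place of these spots differed as well, with 21 of 47 E4 young spots at rows of 50 or more and columns under 50, where the other sections held 0 to 3. In comparisons with E4 young, place and group are therefore mixed, for the genes below as for these shares.

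**Figure D5:**
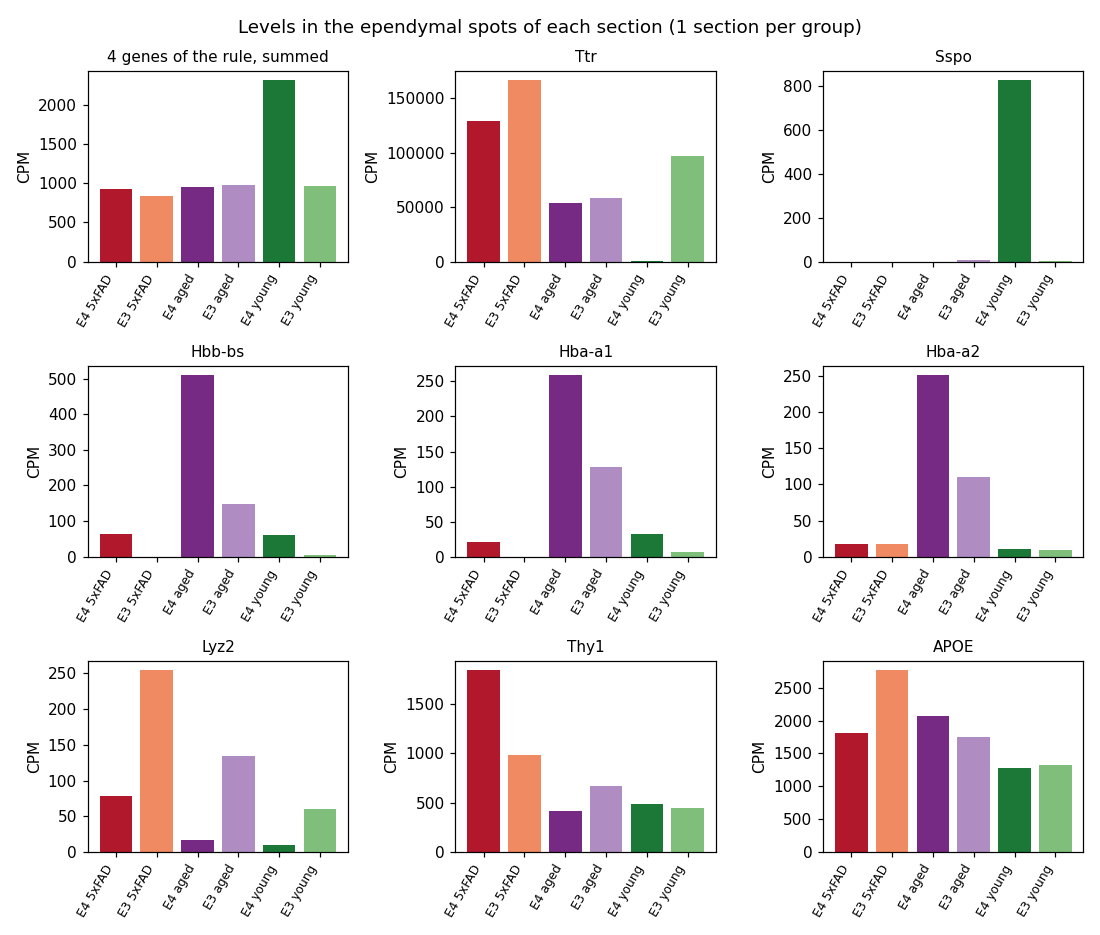
CPM in the ependymal spots of each section, 1 bar per section, for the 4 rule genes together and for 8 single genes. Ttr is at 745 CPM in E4 young and at least 53388 CPM elsewhere, Sspo is high in E4 young alone, and the 3 globin genes are highest in both aged sections.

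E4 against E3 was tested in the ependymal spots over all 6 sections with condition as a second term, which leaves 2 residual degrees of freedom. None of 4611 genes passed in edgeR (0.0% called, smallest adjusted p = 0.378), 287 had an unadjusted p under 0.05, and DESeq2 called 0. The smallest p-values belonged to Lyz2, the lysozyme of myeloid cells, at 78.0 and 255 CPM in E4 and E3 5xFAD, 16.7 and 134 CPM in E4 and E3 aged, and 10.1 and 60.1 CPM in E4 and E3 young. E4 was below E3 in 3 of 3 pairs, with a log2 difference of -2.26 ± 0.36. The GABA transporter gene Slc6a11 was at 160.3 and 67.9 CPM in E4 and E3 5xFAD, 242 and 61.1 CPM in E4 and E3 aged, and 319.8 and 99.7 CPM in E4 and E3 young, with E4 above E3 in 3 of 3 pairs (1.63 ± 0.28).

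The other 8 of the 10 smallest p-values had 1 direction in 3 of 3 pairs as well, but the same pairs gave the p-values that picked these genes. Higher in E4 were Hbb-bs (2.31), the vesicle protein gene Baiap3 (2.38), 6330403K07Rik (1.12), the imprinted genes Ndn (1.11) and Nap1l5 (1.32) and Crip1 (1.54), and lower in E4 were the adhesion molecule Vcam1 (-1.64) and the folate receptor Folr1 (-1.83). Without E4 young Slc6a11 was at 1.73, Ndn at 1.09 and Nap1l5 at 0.91, and with only the spots at rows under 50 Ndn was at 0.47 and Nap1l5 at 0.06. The choroid plexus list had a median of -1.66 (0 of 17 genes positive), the habenula list -1.34 (1 of 6) and other ependymal markers 0.67 (23 of 24 positive), against a median of 0.00 over all genes. Central apparatus genes had a median of 0.99, 6 of 6 positive. In E4 young choroid plexus genes summed to 1342 CPM, against 60927 to 185163 CPM in the other 5 sections. Without E4 young the medians were -0.45 for choroid plexus, 0.15 for habenula, -0.05 for other ependymal markers and 0.98 for the central apparatus. Over the whole central apparatus list, the ratio of ependymal to other spots was 11.35 and 12.55 in E4 and E3 aged, with E4 below E3. It was 10.37 and 6.866 in E4 and E3 5xFAD, and 26.87 and 10.63 in E4 and E3 young.

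Left without either 5xFAD section, this comparison calls genes: 184 without E3 5xFAD and 99 without E4 5xFAD, in a fit with 1 residual degree of freedom. Human APOE did not pass the test between genotypes (-0.18 ± 0.19, adjusted p = 0.928). The log2 ratio of E4 over E3 was -0.61 (95% counting interval -0.88 to -0.34) in 5xFAD, 0.25 (-0.01 to 0.50) in aged and -0.05 (-0.20 to 0.10) in young, on at least 163 UMIs per section. The direction of the fitted difference turned without E4 5xFAD (0.05) or E3 5xFAD (0.04).

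Aged against young, 3 of 4611 genes passed (0.0651%), all globins, the oxygen-binding chains of red blood cells. Hbb-bs was at 509.8 and 147 CPM in E4 and E3 aged, against 60.7 and 6.33 CPM in E4 and E3 young (3.54 ± 0.42, adjusted p = 0.0333). Hba-a1 was at 259 and 128 CPM in E4 and E3 aged, against 32.4 and 6.33 CPM in E4 and E3 young (3.46 ± 0.44). Hba-a2 was at 251 and 110.01 CPM in E4 and E3 aged, against 10.1 and 9.49 CPM in E4 and E3 young (4.06 ± 0.50). Both aged sections lay above both young sections for each globin.

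Only part of the ependymal spots carried each globin: Hbb-bs had a UMI in 4 of 12 and 5 of 15 spots of E4 and E3 aged. Hba-a1 had one in 3 of 12 and 3 of 15, and Hba-a2 in 6 of 12 and 8 of 15. Other spots showed the same order, with Hbb-bs at 130.1 and 158 CPM in E4 and E3 aged, against 44.5 and 31.3 CPM in E4 and E3 young. None of the 3 passed without E3 aged (adjusted p 0.223 to 0.749) or without E4 aged (0.0558 to 1). With the tissue mask ignored Hbb-bs (0.0815) and Hba-a2 (0.635) did not pass and Hba-a1 was too low to be tested, as were all 3 with only the spots at rows under 50. Hbb-bs and Hba-a1 (0.825) did not pass at the 98th percentile. Without the choroid-bearing spots Hba-a1 (0.168) and Hba-a2 (0.192) did not.

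The next genes by p did not pass (adjusted p = 0.9998) and are given as values. The immediate early gene Fos was at 83.6 and 147 CPM in E4 and E3 aged, against 28.3 and 17.4 CPM in E4 and E3 young (2.38 ± 0.52). Other spots had Fos at 149.7 and 207 CPM in E4 and E3 aged, against 46.9 and 31.8 CPM in E4 and E3 young. Mia was at 83.6 and 110.01 CPM in E4 and E3 aged, against 324 and 180.4 CPM in E4 and E3 young (-1.28 ± 0.35), and Hdc differed by -1.46 ± 0.44. Of 24 other ependymal markers 3 had a positive difference (median -0.55), of 14 axonemal microtubule genes 1 (median -0.69), and of 7 immediate early genes all 7 (median 1.22), against 0.02 over all genes. Without E4 young the medians were 0.03, -0.19 and 1.49.

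5xFAD against young, none of 4611 genes passed in edgeR (0.0% called, smallest adjusted p = 0.425), 377 had an unadjusted p under 0.05, and DESeq2 called 0. Genes of myeloid cells and complement held 4 of the 10 smallest p-values. Lyz2 was at 78.0 and 255 CPM in E4 and E3 5xFAD, against 10.1 and 60.1 CPM in E4 and E3 young (2.49 ± 0.41), and Tyrobp, an adaptor of microglial receptors, at 104 and 271 CPM in E4 and E3 5xFAD, against 32.4 and 60.1 CPM in E4 and E3 young (2.01 ± 0.35). C1qa was at 173 and 238 CPM in E4 and E3 5xFAD, against 62.7 and 88.6 CPM in E4 and E3 young (1.53 ± 0.32), and C1qb differed by 1.40 ± 0.32. In these 4 genes both 5xFAD sections lay above both young ones.

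Other spots showed this order too, with Tyrobp at 305 and 241 CPM in E4 and E3 5xFAD, against 38.4 and 45.8 CPM in E4 and E3 young. Thy1, a neuronal surface protein whose regulatory sequence drives the transgenes, was at 1845 and 984 CPM in ependymal spots of E4 and E3 5xFAD, against 490 and 445 CPM in E4 and E3 young (1.72 ± 0.31). In other spots Thy1 was at 5268 and 3619 CPM in E4 and E3 5xFAD, against 752 and 850.1 CPM in E4 and E3 young. Human APP had 21.7 and 50.9 CPM in ependymal spots of E4 and E3 5xFAD, on 5 and 3 UMIs, and none in the other 4 sections.

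The antigen-presentation subunit B2m stood at 1.37 ± 0.28 and the protease Ctsz at 1.42 ± 0.31, while Zcchc12 (-1.99), 1700024G13Rik (-2.94) and Ranbp1 (-2.38) were lower in 5xFAD. By list, 6 of 6 complement and MHC class I genes (median 1.18), 5 of 5 interferon genes (1.35) and 17 of 17 choroid plexus genes (2.10) had positive differences, and 2 of 24 other ependymal markers did (median -0.84), against -0.02 over all genes. Without E4 young the medians were 0.83, 0.81, 0.65 and -0.17. Choroid plexus genes moved with these lists, and the part of choroid plexus RNA in them was not tested.

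Whether an effect in ependymal spots differed from that in other spots of the same sections was tested with interaction terms. These fits leave 2 residual degrees of freedom. For E4 against E3, 59 of 15601 genes passed (0.378%), 17 with the more positive effect in ependymal spots and 42 with the more negative one. For aged against young 2 passed (0.0128%), and for 5xFAD against young 39 (0.25%), 29 more positive and 10 more negative. Of 17 choroid plexus genes 14 had the more negative E4 effect and 11 the more positive 5xFAD effect. For Ttr the E4 effect differed by -3.71 ± 0.31 in ependymal against other spots, and the 5xFAD effect by 3.73 ± 0.39. For Kl, which encodes klotho, these differences were -2.57 ± 0.26 and 2.35 ± 0.31.

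Of 11 neuronal genes none passed for the E4 effect, and of 12 astrocyte genes 1 did. The E4 effect was more positive in ependymal spots for Hbb-bs (2.38), whose 5xFAD effect was more positive too (2.56), and for Slc6a11 (1.58), the axon growth protein gene Gap43 (1.32) and the granin Scg2 (1.24), and the 5xFAD effect more negative for Gfap (-1.42 ± 0.31, adjusted p = 0.00336). Gfap was at 251 and 543 CPM in ependymal spots of E4 and E3 5xFAD, against 180.1 and 168 CPM in E4 and E3 young. In other spots Gfap was at 342 and 179 CPM in E4 and E3 5xFAD, against 48.7 and 42.1 CPM in E4 and E3 young. Hbb-bs was at 65.0 and 0 CPM in ependymal spots of E4 and E3 5xFAD, against 60.7 and 6.33 CPM in E4 and E3 young. These values rest on 15 and 0 UMIs in E4 and E3 5xFAD and on 30 and 4 UMIs in E4 and E3 young. In other spots Hbb-bs was lower in 5xFAD, at 8.32 and 15.6 CPM in E4 and E3, against 44.5 and 31.3 CPM in young. Without the 54 spots that passed the choroid score the 3 counts were 7, 2 and 0, and without E4 young 19, 0 and 11.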

How the data were processed

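The deposited count matrices hold whole-number UMI counts per gene and spot, for mouse and human genes. The methods name a mouse reference alone, with Space Ranger 1.3.0 and STAR 2.5.1b. The matrix headers name spaceranger 2.0.0 (E3 5xFAD) and 1.2.2 (the other 5 sections). The gene lists, members and splits were chosen with earlier results of these data known. Per section, counts were summed over ependymal, choroid plexus and other spots. Human genes other than those these mice carry were left out, and doublets do not apply to spots. Levels are CPM of these sums. The sums were tested with edgeR 4.0.16 in R 4.3.3 (quasi-likelihood, TMM, filterByExpr, Benjamini-Hochberg, adjusted p under 0.05), with SE as the log2 difference over the square root of F. The 4 rule genes, and those of the choroid score in that comparison, were not tested but kept in library sizes. Section was a block in comparisons within sections (5 residual degrees of freedom), and genotype and condition were additive between sections (2). The interaction fits also had section as a block, and left 2 residual degrees of freedom on 12 sums. Genes named were the 25 largest rises with at least 100 UMIs in ependymal spots and in all 6 sections. The list members with most UMIs or the largest change were named too. Between groups these were called genes with at least 50 UMIs or the 10 smallest p-values. The 10 largest falls (at least 100 UMIs, higher in no section) and further list members were named after their values were seen. So were the genes named in the choroid plexus comparison and Sspo. Alternatives were DESeq2 1.42.0, RLE size factors, no filter, each section left out, other percentiles, depth minimums, markers and members, and the mask. The test was tried on simulated counts.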

Additional observations from a re-analysis of the deposited data

Results flagged for a closer look

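The test for effects that differ between ependymal and other spots named 59 genes for E4 against E3, led by Ttr at -3.71, Enpp2, a lysophospholipase of the choroid plexus, at -2.41, Kl at -2.57, 2900040C04Rik at -2.94 and the secreted antagonist Sostdc1 at -2.43 (log2, ependymal minus other spots). It named 2 genes for aged against young, Ttr at 2.00 and Nwd2, a gene high near the habenula sites, at 1.89. It named 39 genes for 5xFAD against young, with Ttr at 3.73, Enpp2 at 2.74, Kl at 2.35, Sostdc1 at 3.00 and the growth factor-binding protein Igfbp2 at 1.94. Beside these, Ttr in other spots was at 3884 and 607 CPM in E4 and E3 5xFAD, 6810 and 488 CPM in E4 and E3 aged, and 436 and 3121 CPM in E4 and E3 young.

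Outside the spots analysed, 80 of 1275 spots with at least 1000 UMIs that the tissue mask leaves out reached the score threshold (6.27%, exact 95% interval 5.01 to 7.75). Of these, 62 lay within 2 spots of an ependymal spot, 75 had at least 2 of the 4 genes, and 33 were in E4 young. Under the mask, 13 of 1190 spots with fewer than 1000 UMIs reached it, none in E4 or E3 young.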

How the results depend on the processing

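Sections limit every comparison between groups, at 1 per group, and counting limits low genes, since ependymal spots hold 0.913% of the UMIs. The 44 genes named for ependymal against other spots kept their direction and side of the threshold in 736 of 748 repeats, and the 36 named between groups in 480 of 564, with 67 gaining and 13 losing the threshold. Leaving out 1 section gave 3862 to 4911 genes against other spots, 44 to 414 against choroid plexus spots, 1 to 184 for E4 against E3 (184 without E3 5xFAD), 0 to 70 for aged against young (70 without E3 young), 1 to 180 for 5xFAD against young (180 without E3 young), and 18 to 125, 0 to 15 and 11 to 61 for the 3 interactions of E4, aged and 5xFAD. The share of ependymal spots in E4 minus E3 was -0.0007 to 0.681 points when 1 section was left out, the lowest without E4 young, and 0.387 to 0.775 points in the other repeats.

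Without the ependymal spots that passed the choroid score, 2718 genes differed from other spots, 521 from choroid plexus spots, 1 for aged against young, and 7 and 0 in the interactions of E4 and 5xFAD. Against choroid plexus spots the other counts over 1.5 times from 273 were 92 with DESeq2, 181 at the 98th percentile (267 spots) and 434 at a stricter one (67 spots), 180 with at least 5000 UMIs, 27 at rows under 50 and 966 with the mask ignored. With no filter 68, 11 and 62 genes were called for E4, aged and 5xFAD, with at least 5000 UMIs 5 for E4, at the 98th percentile 2 for 5xFAD, at the stricter one 1 for aged, and 0 for aged at rows under 50 or with the mask ignored. The 3 interaction counts of 59, 2 and 39 became 31, 1 and 15 with DESeq2, 120, 8 and 51 at the 98th and 5, 3 and 1 at the stricter percentile, 22, 1 and 4 at rows under 50, 16, 0 and 10 with the mask ignored, and 60, 4 and 43 without spots on 2 rule UMIs. The rows-under-50, mask and 2-UMI settings were chosen after seeing the data.

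Directions turned for Ttr against other spots (-0.10 without choroid-bearing spots), human APP (-1.59, but 0.92 with DESeq2), Nwd2 (-1.27) and Tac2 (-1.87) at rows under 50, Hbb-bs in E4 against E3 (-0.77 at the 98th percentile), and APOE in E4 against E3 (0.34 without choroid-bearing spots, and -0.37 to 0.05 when 1 section was left out, positive without E3 5xFAD, at 0.04, or E4 5xFAD, at 0.0504). Dynlrb2 in E4 minus E3 was 46.1 CPM in the sums and -0.0279 CPM as a mean over spots. The cause was not tested. No paired analysis was possible because each group holds 1 section, whose number only names it. The section block and the condition term are parts of the design and no replicate pairing.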

Other observations

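Other gene lists were counted between ependymal and other spots, where 15.9% of all genes rose and 16.9% fell, with a median of -0.08. Of 16 barrier, junction and transport genes 9 rose and 1 fell (median 0.60), with the cadherin-related Cdhr3 at 4.71 ± 0.35, while Ctnnb1, which links cadherins to actin, stood at -0.06 ± 0.12. Of 21 genes of disease-associated microglia 5 rose and 1 fell (median -0.07, near that of all genes), with the galectin Lgals3 at 4.18 ± 0.33 and the lysosomal protease Ctsd at 0.66 ± 0.12. Lgals3 was at 30.1 to 75.2 CPM in ependymal spots of the 6 sections, against 1.04 to 9.40 CPM in other spots.

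Of 16 cholesterol synthesis genes 5 fell and none rose (median -0.23), with Hmgcs1 at -0.45 ± 0.15. With RLE size factors 1 rose and 2 fell. Myelin genes differed by place: over all ependymal spots 1 of 11 rose (median 0.15), and with only those at rows under 50, 10 of 11 rose (median 0.83). Of 11 neuroblast and progenitor genes 3 rose, among them Igfbpl1 (2.85 ± 0.68, on 10 UMIs) and Thbs4 (1.92 ± 0.48, on 23 UMIs).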
